A study of Mus musculus with 12 samples.

Results

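The 9 genes described here encode proteins that tie the actin filaments of smooth muscle to its membrane and to one another: the filamins *Flna* and *Flnc*, and the dense plaque components *Vcl*, *Tln1*, *Tns1*, *Zyx*, *Parva*, *Ilk* and *Actn1*. They were chosen by name from the 54532 genes of each deposited table, and their TPM (a relative transcript level corrected for gene length and for sequencing depth) was followed across tissue and genotype. RNA from homogenates of distal colon and urinary bladder was sequenced in 12 libraries, 3 per group, from 9 male mice aged 5 to 7 weeks, of which 3 gave both tissues. All mice carried floxed *Yap1* and *Wwtr1* alleles, which encode the transcriptional co-activators YAP and TAZ, and all received tamoxifen at 1 mg per mouse per day for 5 days, with tissue taken on day 7 after the first injection. The Y/T KO mice carried Myh11CreERT2, a tamoxifen-inducible recombinase driven by the smooth muscle myosin heavy chain promoter, and the controls (Ctrl) were Cre negative. The transgene lies on the Y chromosome, so only males were used, and any effect of Cre itself cannot be told apart from loss of the floxed genes.

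Smooth muscle cells transmit force through dense plaques, membrane sites where integrins bound to the matrix outside are coupled to actin inside. Talin binds the integrin tail and recruits vinculin, alpha-actinin cross-links the filaments, tensin and zyxin join along the filament ends, and integrin-linked kinase, PINCH and parvin form a separate complex on the integrin tail. Filamins cross-link actin into networks and bind integrins as well.

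In the Ctrl mice all 9 genes were called lower in colon than in bladder, against 25.3% of all genes tested. On the log2 scale 8 of the 9 had a lower mean in Y/T KO than in Ctrl colon, against 49.1% of all genes. All 9 had a lower mean in Y/T KO bladder, against 49.8%. Without 2 Y/T KO bladders that held skeletal muscle transcripts, *Flna* was at 0.21 there and *Parva* at -0.06. No genotype difference of a member reached a limma adjusted p of 0.05 in either tissue. In the list of other integrin adhesion genes, *Lims2*, a PINCH partner of integrin-linked kinase, fell in the colon, a call that was lost on leaving out any of 5 of the 6 colon libraries.

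The libraries held an estimated 2.80 to 3.94 gigabases of aligned sequence, worked out from the deposited coverage and FPKM values. The members had a coverage of 8.34 to 1658 per base. The summed TPM of 10 smooth muscle markers was 7600 to 8324 in Ctrl colon, 4974 to 5849 in Y/T KO colon, 35476 to 46189 in Ctrl bladder and 17003 to 31131 in Y/T KO bladder. In these homogenates fewer smooth muscle cells and less RNA per cell cannot be told apart. *Yap1* had a log2 fold change of -0.17 in colon (adjusted p = 0.697) and of -0.54 in bladder (adjusted p = 0.0625), and *Wwtr1* of 0.18 (adjusted p = 0.730) and 0.24 (adjusted p = 0.678). These gene totals separate neither the floxed exons from the rest of the transcript nor smooth muscle from other cells, so they do not check the labels.

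The bladder libraries of Y/T KO mice 783 and 780 stood apart by skeletal muscle transcripts. *Myh4*, a skeletal muscle myosin, was at 409 and 432 TPM there, at 46.1 TPM in the Ctrl bladder of mouse 784, and listed at 0 in the other bladders and in all colons. The summed TPM of 10 skeletal muscle markers was 7336 and 8115 in those libraries, 1286 in the Y/T KO bladder of mouse 782 and 1388 to 2135 in the Ctrl bladders. One of these markers, *Acta1*, alone was at 1057 to 1331 TPM in Ctrl bladders and at 915 to 2244 TPM in Y/T KO bladders. In the bladders of mice 785, 788 and 782, 6 of the 10 markers reached 1 TPM, against 9 in mouse 784 and 10 in mice 783 and 780. The bladders of mice 783 and 780 differed in other markers too. Adipocyte markers summed to 5389 and 4194 TPM there, 3094 in mouse 782 and 2132 to 3681 in Ctrl bladders. Urothelial markers summed to 5859 and 5479 TPM, 7000 in mouse 782 and 6809 to 7490 in Ctrl bladders. Leukocyte markers, at 1466 and 1602 TPM, lay within the Ctrl range of 1149 to 2302. The bladder genotype differences of the members, *Lims1* and *Lims2* are therefore given also without these Y/T KO libraries, which leaves 1 Y/T KO bladder. The same holds for the bladder counts or medians of the gene lists. The ratio tests, the levels relative to the contractile genes and the values of other genes rest on all libraries.

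**Figure D1:**
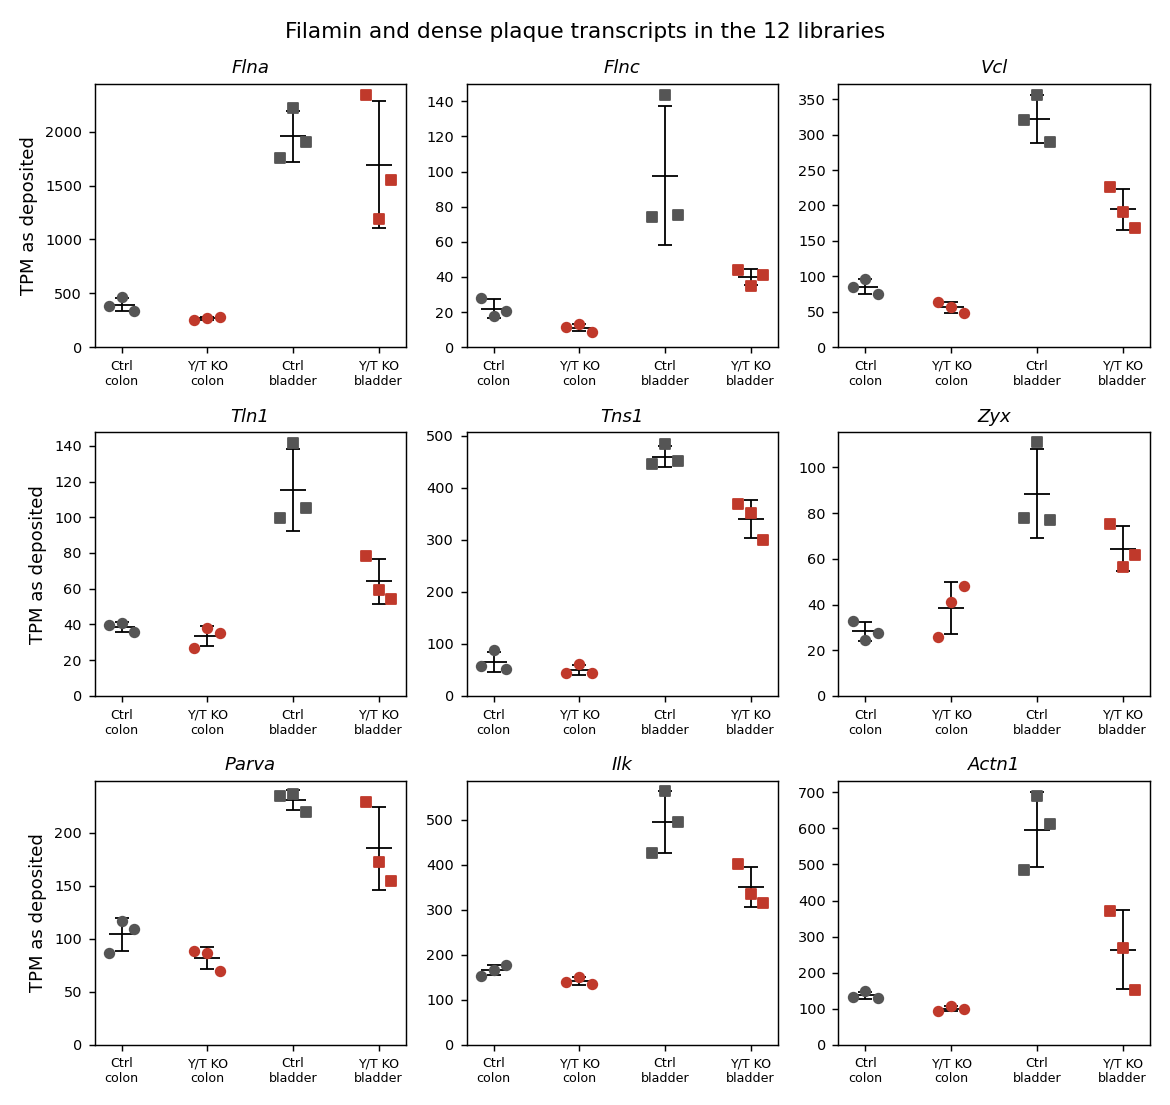
Deposited TPM of the 9 genes (vertical axes, each from 0) in the 4 groups (grey, Ctrl; red, Y/T KO; circles, colon; squares, bladder); each point is a library, the long bar the group mean and the short bars its SD (n = 3). Each member has its highest mean in Ctrl bladder, and the Y/T KO bladder points lie below all Ctrl bladder points except for *Flna* and *Parva*.

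Filamin A (*Flna*, chrX:74223461-74249820, minus strand, GRCm38) was the most abundant member. Its level was 382, 463 and 338 TPM in the Ctrl colons of mice 788, 786 and 787, and 254, 269 and 279 TPM in the Y/T KO colons of mice 759, 783 and 780. In bladder it was 1756, 2218 and 1901 TPM in Ctrl mice 784, 785 and 788, and 2342, 1194 and 1547 TPM in the Y/T KO mice 782, 783 and 780. All Y/T KO colons were below all Ctrl colons, whereas in bladder the highest of the 6 libraries was a Y/T KO library and the groups overlapped. The log2 fold change between genotypes was -0.51 ± 0.14 (SE) in colon, with a limma adjusted p of 0.358, and -0.26 ± 0.22 in bladder, with an adjusted p of 0.620. Without the bladders of Y/T KO mice 783 and 780, the bladder value of *Flna* turned to 0.21 (adjusted p = 0.789).

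Filamin C (*Flnc*, chr6:29433256-29461883, plus strand), the filamin best known from striated muscle, was at 27.8, 17.5 and 20.7 TPM in Ctrl colons and at 11.6, 13.1 and 8.71 TPM in the Y/T KO colons. It was at 74.3, 143 and 75.3 TPM in Ctrl bladders and at 43.7, 34.9 and 41.3 TPM in the Y/T KO bladders. The groups did not overlap in either tissue, and 1 Ctrl bladder, of mouse 785, was far above the other Ctrl bladders. The log2 fold change was -0.93 ± 0.25 in colon (limma adjusted p = 0.356) and -1.22 ± 0.26 in bladder (adjusted p = 0.146). Without the Y/T KO bladders of mice 783 and 780 it was -1.14 in bladder, a similar size with 1 Y/T KO library left (adjusted p = 0.671).

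The ratio of *Flnc* to *Flna* in bladder was 0.0477 in Ctrl and 0.0245 in Y/T KO as geometric means, and no Y/T KO library reached the lowest Ctrl library, with the Y/T KO bladder of mouse 782 at 0.0187. The two-sided exact permutation test gave p = 0.1, the smallest that 3 libraries against 3 allow, and 0.267 after adjustment over the 16 ratio tests made. In colon the same ratio was 0.0554 and 0.0414, with overlapping groups (exact permutation p = 0.3, adjusted 0.4).

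Talin 1 (*Tln1*, chr4:43531519-43562691, minus strand) links integrins to actin. It was at 39.9, 40.8 and 35.6 TPM in Ctrl colons and at 27.1, 37.9 and 35.0 TPM in the Y/T KO colons, with overlapping groups. In bladder it was at 99.5, 142 and 105 TPM in Ctrl and at 78.5, 59.6 and 54.1 TPM in the Y/T KO bladders, with no overlap. The genotype difference was -0.19 ± 0.16 on the log2 scale in colon (limma adjusted p = 0.712) and -0.85 ± 0.18 in bladder (adjusted p = 0.141), the latter -0.59 without the Y/T KO bladders of mice 783 and 780.

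Vinculin (*Vcl*, chr14:20929398-21033676, plus strand), which talin recruits, was at 85.5, 95.6 and 75.0 TPM in Ctrl colons and at 64.2, 56.8 and 48.6 TPM in the Y/T KO colons. In Ctrl bladders it was at 321, 357 and 289 TPM, and in Y/T KO bladders at 226, 190.3 and 168 TPM. The groups did not overlap in either tissue. *Vcl* had a log2 fold change of -0.56 ± 0.14 in colon (limma adjusted p = 0.333) and of -0.73 ± 0.13 in bladder (adjusted p = 0.106), the smallest adjusted p of any member in that comparison. Over the 9 alternatives that kept all libraries, the bladder p ran from 0.0635 to 0.195, and without the Y/T KO bladders of mice 783 and 780 the log2 fold change was -0.56 (adjusted p = 0.588).

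Alpha-actinin 1 (*Actn1*, chr12:80167547-80260371, minus strand), the cross-linker of dense bodies and plaques, was at 132, 149 and 130.4 TPM in Ctrl colons and at 93.7, 106 and 100.5 TPM in the Y/T KO colons. In bladder it was at 485, 691 and 613 TPM in Ctrl and at 370.3, 269.6 and 152 TPM in the Y/T KO bladders. *Actn1* was lower in every Y/T KO library than in any Ctrl library of the same tissue, and it varied most among the Y/T KO bladders, where the SD was 39.3% of the mean. The log2 fold change was -0.41 ± 0.12 in colon (limma adjusted p = 0.400) and -1.25 ± 0.32 in bladder (adjusted p = 0.179), or -0.72 without the Y/T KO bladders of mice 783 and 780 (adjusted p = 0.563), a change of more than 1.5 times on the log2 scale.

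The alpha-actinin transcripts shifted in make-up in those 2 bladders. *Actn1* was 63.1% to 73.8% of alpha-actinin TPM in Ctrl bladders and 24.7% to 67.2% in Y/T KO bladders, while *Actn3*, the skeletal muscle form, was at 204 and 231 TPM in mice 783 and 780 and at 2.33 TPM in mouse 782. In Ctrl colon *Actn1* was the lesser form, at 33.3% to 37.0%, and *Actn4*, the widely expressed form, held 62.9% to 66.6%.

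Tensin 1 (*Tns1*, chr1:73910231-74124449, minus strand) binds actin and integrin tails. Its level was 57.0, 88.2 and 51.5 TPM in Ctrl colons and 44.5, 61.6 and 43.4 TPM in the Y/T KO colons, with overlapping groups. It was 445, 484 and 451 TPM in Ctrl bladders and 369.8, 352 and 299 TPM in the Y/T KO bladders, without overlap. Its genotype difference was -0.34 ± 0.21 on the log2 scale in colon (limma adjusted p = 0.628) and -0.44 ± 0.10 in bladder (adjusted p = 0.159), the latter -0.37 without the Y/T KO bladders of mice 783 and 780 (adjusted p = 0.593). Among the tensins, *Tns1* was 73.7% to 77.0% of the TPM in Ctrl bladder but 27.1% to 34.2% in Ctrl colon, where *Tns4*, an epithelial tensin that lacks the actin-binding part, held 31.2% to 34.7%.

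Zyxin (*Zyx*, chr6:42349630-42360213, plus strand), a LIM protein of strained actin filaments, was the member with a higher mean in Y/T KO colon. It was at 32.6, 24.7 and 27.5 TPM in Ctrl colons and at 26.0, 41.3 and 48.0 TPM in the Y/T KO colons, so that mice 783 and 780 were above all Ctrl colons and mouse 759 was among them. In bladder it was at 78.0, 111 and 76.8 TPM in Ctrl and at 75.3, 56.2 and 61.8 TPM in the Y/T KO bladders. The bladder groups were separated by a narrow margin. *Zyx* had a log2 fold change of 0.44 ± 0.26 in colon (limma adjusted p = 0.613) and -0.45 ± 0.17 in bladder (adjusted p = 0.306). On leaving out 1 library the colon value ran from 0.25 without the Y/T KO colon of mouse 780 to 0.70 without that of mouse 759, and the bladder value from -0.56 without the Ctrl bladder of mouse 788 to -0.27 without that of mouse 785. Without the Y/T KO bladders of mice 783 and 780 the bladder value of *Zyx* was -0.26 (adjusted p = 0.850). The difference between the colon and bladder values over all libraries, the interaction of genotype and tissue, was 0.87 ± 0.33 (unadjusted p = 0.0230, adjusted p = 0.339).

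Integrin-linked kinase (*Ilk*, chr7:105736592-105742925, plus strand) is a pseudokinase scaffold. It was at 154, 166 and 177 TPM in Ctrl colons and at 141, 152 and 134 TPM in the Y/T KO colons. It was at 427, 564 and 495 TPM in Ctrl bladders and at 401, 336 and 314 TPM in the Y/T KO bladders. The bladder groups did not overlap. In colon the deposited values did not overlap either, but they did after the rescaling used for the test. For *Ilk* the log2 fold change was -0.18 ± 0.14 in colon (limma adjusted p = 0.682) and -0.50 ± 0.13 in bladder (adjusted p = 0.175), the latter -0.35 without the Y/T KO bladders of mice 783 and 780.

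Alpha-parvin (*Parva*, chr7:112427505-112591692, plus strand), which joins integrin-linked kinase to actin, was at 86.7, 117 and 109 TPM in Ctrl colons and at 88.8, 86.6 and 69.9 TPM in the Y/T KO colons. It was at 235, 237 and 219.8 TPM in Ctrl bladders and at 229, 172 and 154 TPM in the Y/T KO bladders. The groups overlapped in both tissues. The log2 fold change was -0.31 ± 0.16 in colon (limma adjusted p = 0.578) and -0.33 ± 0.14 in bladder (adjusted p = 0.343), and the bladder value was -0.06 without the Y/T KO bladders of mice 783 and 780 (adjusted p = 0.932).

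For orientation in the reference, the spans of all 9 genes were those of GENCODE M21. *Flna*, *Flnc* and *Tns1* overlapped no other annotated gene. The other members overlapped genes on the opposite strand, among them *Ap3m1* at *Vcl*, *Creb3* at *Tln1*, *Epha1* at *Zyx*, *Parvaos* at *Parva* and *Taf10* at *Ilk*, and *Actn1* also overlapped *Gm47765* on its own strand. The library kit marks strand, but the strand setting of the counting is not given in the sources used here, so a share of such reads cannot be told apart.

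Promoter sequence is shown for the 3 members in which a script found a letter match to either element searched for, since YAP and TAZ act through TEAD factors and the contractile genes through serum response factor. RefSeq windows from 250 bases before to 50 bases after the start were given for 8 of the 9 genes (all but *Parva*). The letters GGAATG, the core of the TEAD element, were searched on both strands (CATTCC on the reverse), as was the CArG box of serum response factor. Of 32851 RefSeq windows of this length in the mouse, 14.7% held GGAATG and 1.63% held a CArG box. The sequences below are from GRCm38.p6, each on the strand of its gene, with the matches in capitals.
Vcl, chr14:20929148-20929277, plus strand: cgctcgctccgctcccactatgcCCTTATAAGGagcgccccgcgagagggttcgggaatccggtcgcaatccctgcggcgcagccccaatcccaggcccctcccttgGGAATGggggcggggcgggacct
Flna, chrX:74246625-74246724, minus strand: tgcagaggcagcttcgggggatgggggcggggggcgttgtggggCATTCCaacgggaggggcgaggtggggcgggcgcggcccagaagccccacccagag
Flnc, chr6:29433096-29433195, plus strand: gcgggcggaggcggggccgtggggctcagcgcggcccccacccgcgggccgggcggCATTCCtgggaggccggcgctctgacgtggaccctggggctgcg

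In *Vcl* the CArG box lay 227 to 218 bases and GGAATG 143 to 138 bases before the start, and the 2 matches did not overlap. CATTCC lay 146 to 141 bases before the RefSeq start of *Flna*, a start that lies 3286 bases inside the gene as the files delimit it, and 104 to 99 bases before that of *Flnc*. The windows of *Tln1*, *Tns1*, *Zyx*, *Ilk* and *Actn1* did not hold these letters. The matches are a description of these windows and bear on no binding.

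The tissue difference among Ctrl mice addressed how the dense plaque transcripts of the 2 organs compare. In one fit of all 12 libraries, all 9 members were called lower in colon than in bladder, against 25.3% of the 19773 genes tested, and the 3 Ctrl colons lay below the 3 Ctrl bladders for each of them, against 29.3% of genes. *Tns1* had the largest difference, with a log2 fold change of -2.59 ± 0.18 (limma adjusted p = 3.4e-07), or 6.02-fold. *Flna* followed at -2.06 ± 0.19 (4.16-fold, adjusted p = 3.4e-06), then *Actn1* at -1.85, *Flnc* at -1.84 and *Vcl* at -1.66. *Parva* differed least, at -0.89 ± 0.16 (1.86-fold, adjusted p = 0.000545), with *Zyx* at -1.37, *Ilk* at -1.31 and *Tln1* at -1.29 in between. The member median was -1.66, beside 0.01 over all genes tested. With the TPM as deposited, not rescaled, the median of all genes moved to -0.24, and 6312 genes were lower and 3510 higher in place of 5004 and 4959. All 9 members were lower under that scaling too.

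Of 10 paralogues of the members tested in the Ctrl mice, 3 were called lower and 2 were called higher in colon. These counts were close to the shares of all genes, 25.3% and 25.1%, and set the paralogues apart in neither direction. Among those that were higher was *Tns4*, at 69.5, 89.5 and 58.3 TPM in Ctrl colons and 18.2, 28.4 and 31.0 TPM in Ctrl bladders (log2 fold change 1.76 ± 0.27, limma adjusted p = 0.000239). Markers of colon epithelium summed to 12478 to 15007 TPM in Ctrl colon and to 882 to 944 TPM in Ctrl bladder. Their part in these differences was not tested. All 14 smooth muscle contractile genes were lower in Ctrl colon, with a median of -2.07.

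In the Y/T KO mice 8 of the 9 members were called lower in colon than in bladder, against 25.6% of all genes, with a member median of -1.03 beside 0.01 over all genes. *Tns1* (-2.51 ± 0.18) and *Flna* (-2.33 ± 0.19) again had the largest values. *Zyx* was at -0.51 ± 0.23 (adjusted p = 0.0903) and passed the threshold with the TPM as deposited (-0.78, adjusted p = 0.0138) and without the Y/T KO colon of mouse 780 (-0.69, adjusted p = 0.0370). The value of *Zyx* was -0.25 without the Y/T KO colon of mouse 759 (adjusted p = 0.338) and -0.41 without the Y/T KO bladder of mouse 782 (adjusted p = 0.229). Without the Y/T KO bladders of mice 783 and 780, 8 members were again called lower, all but *Zyx*, against 17.7% of the 19309 genes tested, and the member median was -1.57, with *Actn1* at -1.57 in place of -1.03.

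The mean levels of 8 members ran in the order Ctrl bladder, Y/T KO bladder, Ctrl colon and Y/T KO colon, and *Zyx* had its last 2 places exchanged. The bladder groups were neighbours that overlapped for *Flna* and *Parva*. The colon groups overlapped in deposited TPM for *Tln1*, *Tns1*, *Zyx* and *Parva*. In deposited TPM no Y/T KO bladder library of any member reached down to the Ctrl colon libraries. For *Actn1* the margin was narrow, with the Y/T KO bladder of mouse 780 at 152 TPM and the highest Ctrl colon at 149 TPM. After rescaling over all 12 libraries that bladder was at 136, below all Ctrl colons (146 to 150).

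**Figure D2:**
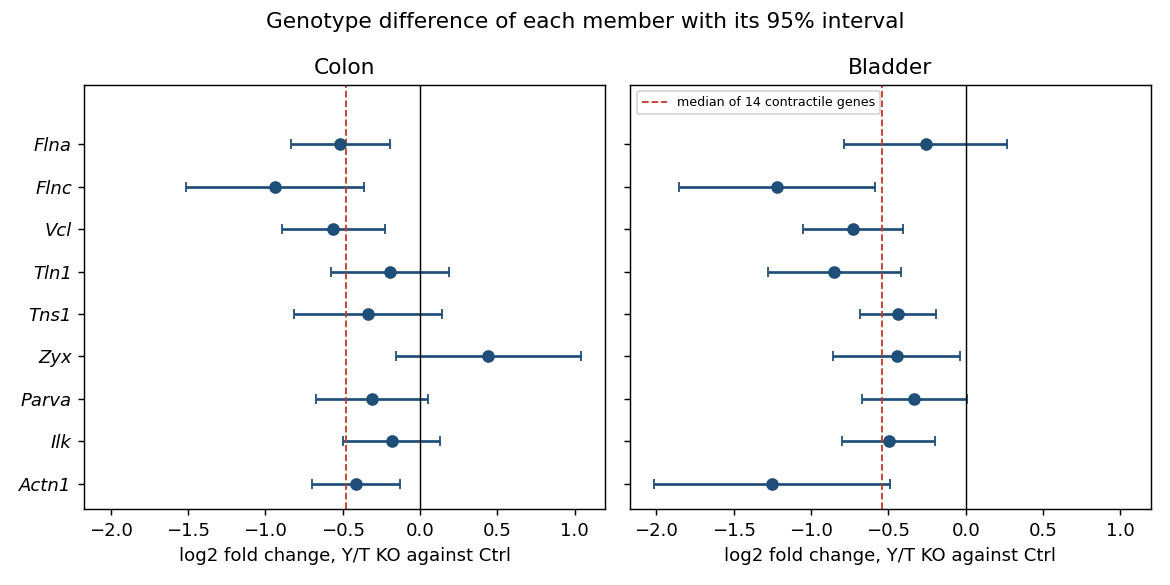
Log2 fold change of Y/T KO against Ctrl (horizontal axis) for the 9 genes in colon and in bladder; points are limma estimates from 3 libraries per group, bars their 95% intervals, and the dashed line is the median of 14 contractile genes. The intervals run below 0 for 4 genes in colon and 7 in bladder before adjustment for the number of genes tested, and *Zyx* in colon is the single estimate above 0.

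The genotype comparison asked whether loss of YAP and TAZ in smooth muscle altered these transcripts. In colon 0 of 9 members were called by limma, against 0.137% of the 17500 genes tested, and 4 (*Flna*, *Flnc*, *Vcl* and *Actn1*) had an unadjusted p under 0.05 and were lower, against 4.59% of all genes. The same 4 had no overlap between the genotypes, against 7.87% of all genes, and 8 members had a log2 fold change below 0, against 49.1%. In bladder 0 of 9 were called, against 0.302% of 18237 genes, 7 were lower at an unadjusted p under 0.05 and without overlap (all but *Flna* and *Parva*), against 8.2% and 11.4%, and all 9 were below 0, against 49.8%. The member median was -0.34 in colon and -0.50 in bladder, beside 0.01 and 0.00 over all genes. Without the Y/T KO bladders of mice 783 and 780 the bladder median was -0.37, and 8 members, all but *Flna*, were below 0. At an unadjusted p under 0.05, 3 members (*Vcl*, *Actn1* and *Tns1*) were then lower, against 4.19% of all genes.

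No member differed in its genotype effect between the tissues at an adjusted p of 0.05 (0 of 9, against 0.0607% of 19773 genes). At an unadjusted p under 0.05 there were 3, *Zyx* (0.87), *Actn1* (0.82 ± 0.35, adjusted p = 0.403) and *Tln1* (0.63 ± 0.25, adjusted p = 0.353), each with a more negative value in bladder, where 6.43% of all genes had a positive interaction at that level. Without the Y/T KO bladders of mice 783 and 780 these values were 0.69, 0.29 and 0.37, with adjusted p of 0.851, 0.872 and 0.874, and that of *Flna* was -0.75 (adjusted p = 0.593).

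**Figure D3:**
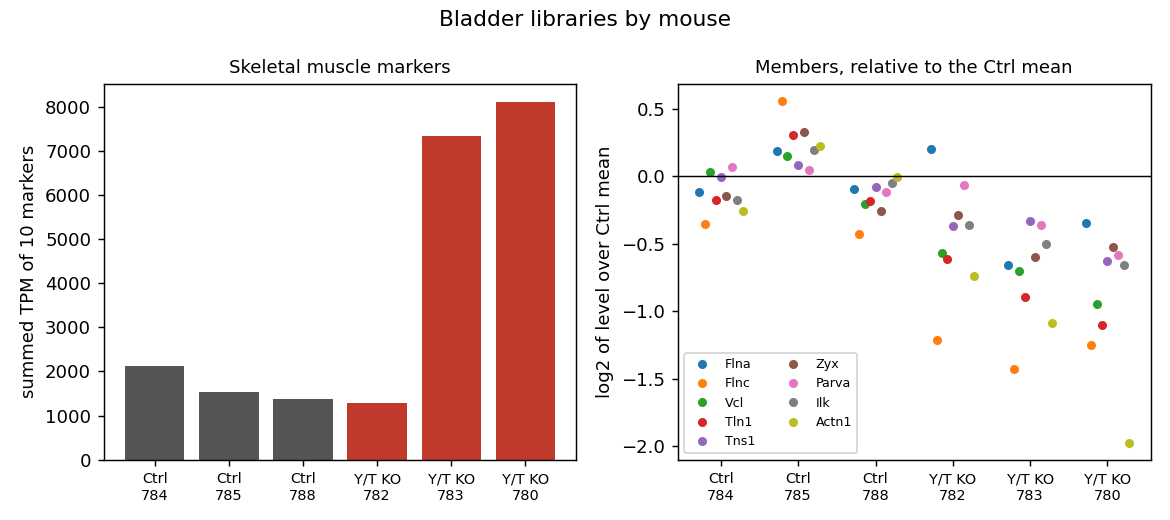
Left, summed TPM of 10 skeletal muscle markers in the 6 bladder libraries by mouse number (grey for Ctrl, red for Y/T KO). Of the Ctrl sums, *Acta1* alone held 1057 to 1331 TPM. Right, log2 of each member's rescaled TPM over its Ctrl bladder mean in the same libraries, 1 colour per gene; the Y/T KO bladder of mouse 782, with a marker sum of 1286, has the highest Y/T KO value of 8 of the 9 genes.

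The Y/T KO bladder with the lowest skeletal muscle marker sum, that of mouse 782, had the highest level of most members, and the other pair, with high sums, had lower levels in no common order. On the rescaled TPM, mouse 782 had the highest level of 8 of the 9 members (all but *Tns1*), mouse 780 had the lowest of 6, and mouse 783 had the lowest of the other 3 (*Flna*, *Flnc* and *Zyx*). The summed TPM of the 9 members was 4135 in mouse 782, 2665 in mouse 783 and 2793 in mouse 780, and 3922 to 4947 in the Ctrl bladders. Smooth muscle markers summed to 31131, 20763 and 17003 TPM in the same 3 Y/T KO libraries. The part of the skeletal muscle transcripts in the bladder results was not tested.

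The genes that act next to *Ilk* and *Parva* included the single genotype call among the lists described here. *Lims2*, which encodes PINCH2, an adaptor that binds integrin-linked kinase, was at 28.4, 26.9 and 27.8 TPM in Ctrl colons and at 5.43, 9.52 and 7.76 TPM in the Y/T KO colons. It fell in colon, with a log2 fold change of -1.86 ± 0.23 and a limma adjusted p of 0.0410. The call was lost without a filter on low values (adjusted p = 0.0777) and without the trend and robust options of limma (0.0795). It was also lost on leaving out any 1 of the Ctrl colons of mice 788 (0.112), 786 (0.129) and 787 (0.147) or the Y/T KO colons of mice 783 (0.102) and 780 (0.142), and held without mouse 759 (0.0275). The log2 fold change stayed between -1.63 and -2.03 over these 6 fits. In bladder *Lims2* was at 109, 160 and 94.2 TPM in Ctrl and at 61.5, 39.7 and 40.2 TPM in the Y/T KO bladders, again without overlap, at -1.35 ± 0.24 (adjusted p = 0.103), and at -0.99 without the Y/T KO bladders of mice 783 and 780. The interaction was -0.53 ± 0.35 (adjusted p = 0.567).

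*Lims1*, which encodes PINCH1, was at 47.1, 68.5 and 50.7 TPM in Ctrl colons and at 18.4, 34.4 and 22.4 TPM in the Y/T KO colons, a log2 fold change of -1.13 ± 0.24 (limma adjusted p = 0.222). In bladder it was at 68.5, 89.5 and 88.2 TPM in Ctrl and at 70.6, 57.3 and 43.9 TPM in the Y/T KO bladders, at -0.53 ± 0.18 (adjusted p = 0.261), and at -0.26 without the Y/T KO bladders of mice 783 and 780 (adjusted p = 0.780). The colon groups did not overlap. The bladder groups overlapped in deposited TPM, where mouse 782 was above Ctrl mouse 784, and did not after the rescaling used for the test. *Rsu1*, which encodes the PINCH partner Ras suppressor protein and was chosen after its values were seen, was at 69.0, 79.4 and 81.4 TPM in Ctrl colons and at 72.1, 70.0 and 62.9 TPM in the Y/T KO colons, and those ranges overlapped.

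**Figure D4:**
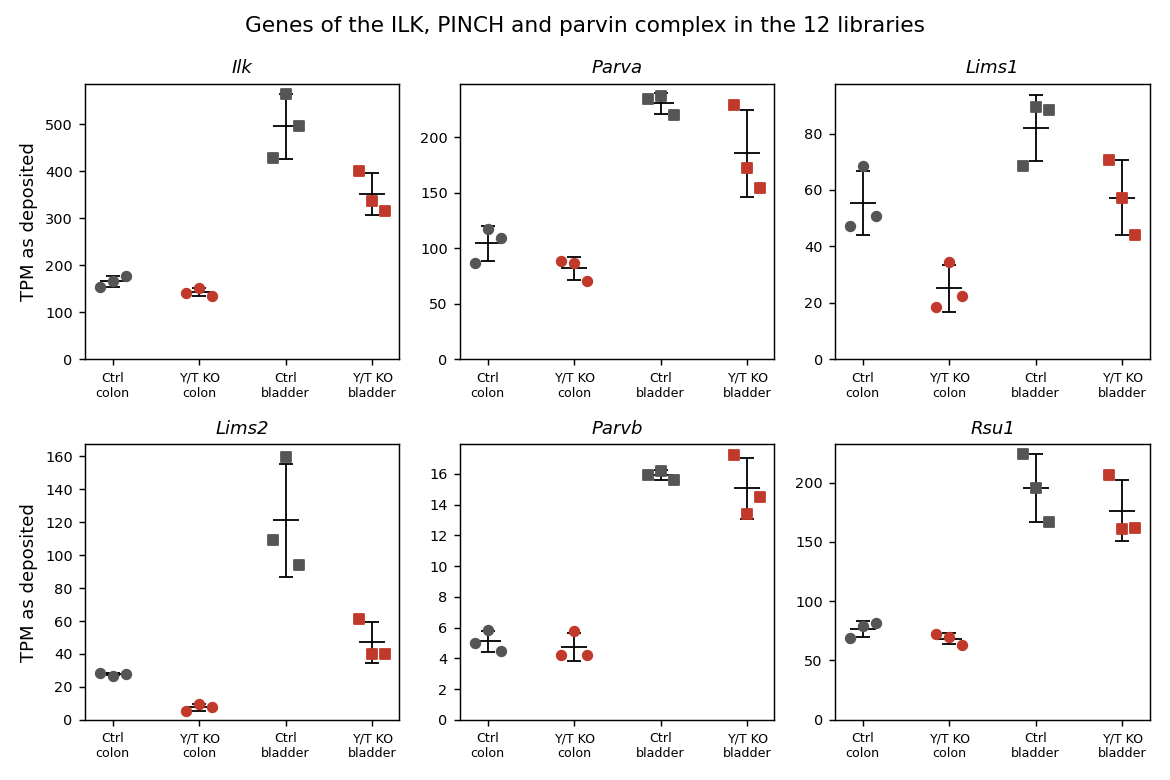
Deposited TPM (vertical axes, each from 0) of *Ilk*, *Parva*, *Lims1*, *Lims2*, *Parvb* and *Rsu1* in the 4 groups (grey, Ctrl; red, Y/T KO; circles, colon; squares, bladder), with each library as a point, the mean as a long bar and the SD as short bars (n = 3). *Lims2* lies between 5.43 and 9.52 TPM in Y/T KO colon and between 26.9 and 28.4 TPM in Ctrl colon, while *Ilk* lies between 134 and 152 and between 154 and 177 TPM.

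Ratios within a library compare partners without reference to the other genes. The ratio of *Lims1* to *Ilk* in colon was 0.331 in Ctrl and 0.171 in Y/T KO as geometric means, with all Y/T KO libraries below all Ctrl libraries (two-sided exact permutation p = 0.1, adjusted 0.267). In bladder it was 0.166 and 0.161 with overlapping groups (exact permutation p = 0.8, adjusted 0.8). The ratio of *Lims2* to *Lims1* was 0.507 and 0.308 in colon and 1.45 and 0.821 in bladder, without overlap in either (exact permutation p = 0.1, adjusted 0.267 in both). The Y/T KO bladder of mouse 782 was at 0.871 and the lowest Ctrl bladder at 1.07. The ratio of *Parva* to *Ilk* overlapped between genotypes in both tissues, at 0.625 and 0.573 in colon and 0.468 and 0.524 in bladder. The ratio of *Lims2* to *Ilk*, chosen after its values were seen and not tested, was 0.168 and 0.0526 in colon.

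The wider list of 36 integrin adhesion and adaptor genes had 1 gene called in colon by limma, *Lims2*, against 0.137% of all genes. It had 0 called in bladder, against 0.302%. Before adjustment 8 were lower and 1 was higher at p under 0.05 in colon (all genes, 4.59% and 5.14%). In bladder 15 were lower and 0 higher at that level (8.2% and 6.64%). The list medians were -0.13 and -0.46. With the Y/T KO bladders of mice 783 and 780 left out, 6 were lower and 0 higher in bladder before adjustment (all genes, 4.19% and 3.32%), with a median of -0.27. In colon the smallest p values after *Lims2* belonged to *Synpo2*, the actin bundler synaptopodin 2 (-0.85 ± 0.13, adjusted p = 0.0851), *Lims1*, and *Nexn*, the actin-binding nexilin (-0.58 ± 0.14, adjusted p = 0.313). In bladder they belonged to *Src*, the adhesion tyrosine kinase (-0.59 ± 0.10, adjusted p = 0.103), *Lims2*, *Pdlim7*, a PDZ and LIM adaptor (-0.72 ± 0.15, adjusted p = 0.141), and *Git1*, a paxillin-binding adaptor (-0.50 ± 0.11, adjusted p = 0.146). *Src* was at 55.1, 62.3 and 63.5 TPM in Ctrl bladders and at 37.5, 42.5 and 40.3 TPM in the Y/T KO bladders.

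No paralogue of a member was called between genotypes, of 8 tested in colon and 10 in bladder, against 0.137% and 0.302% of all genes. With an unadjusted p under 0.05 there were 0 in colon, where 4.59% of all genes were lower and 5.14% higher. In bladder 4 were lower and 0 higher, against 8.2% and 6.64% of all genes. The bladder median was -0.25, or -0.29 without the Y/T KO bladders of mice 783 and 780. The bladder count of 4 rests on all libraries, those of mice 783 and 780 included, so the median does not show that it holds without them. In colon the smallest p values were those of *Parvg*, the leukocyte parvin (0.50 ± 0.25, limma adjusted p = 0.569), *Tns4* (-0.46 ± 0.29, 0.630), *Tns3* (-0.16 ± 0.17, 0.757) and *Tln2* (0.15 ± 0.20, 0.827). In bladder they included those of *Actn4* (-0.66 ± 0.20, adjusted p = 0.234), *Tns3* (-0.25 ± 0.08, 0.254) and *Tns4* (-0.50 ± 0.20, 0.316).

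Of 17 integrin chains, the membrane receptors of the plaque, 0 were called in either tissue by limma, against 0.137% of all genes in colon and 0.302% in bladder. At an unadjusted p under 0.05, 4 were lower and 2 higher in colon, against 4.59% and 5.14% of all genes. In bladder 8 were lower and 0 higher at that level, against 8.2% and 6.64% of all genes. The list medians were 0.03 and -0.42. Of 9 cadherin and catenin genes, the cell to cell counterpart, 0 were called, with 0 in colon and 1 lower in bladder at that level and medians of -0.05 and -0.13. The 14 contractile genes had 0 calls, with 10 lower in colon and 8 lower in bladder at that level. All 14 had log2 fold changes below 0 in both tissues, against 49.1% and 49.8% of all genes, with medians of -0.48 and -0.54. Without the Y/T KO bladders of mice 783 and 780, the bladder medians were -0.37 for the integrin chains and -0.13 for the cadherins and catenins. That of the contractile genes was -0.27. The bladder counts of these lists rest on all libraries, those of mice 783 and 780 included, so the medians do not show that the counts hold without them.

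**Figure D5:**
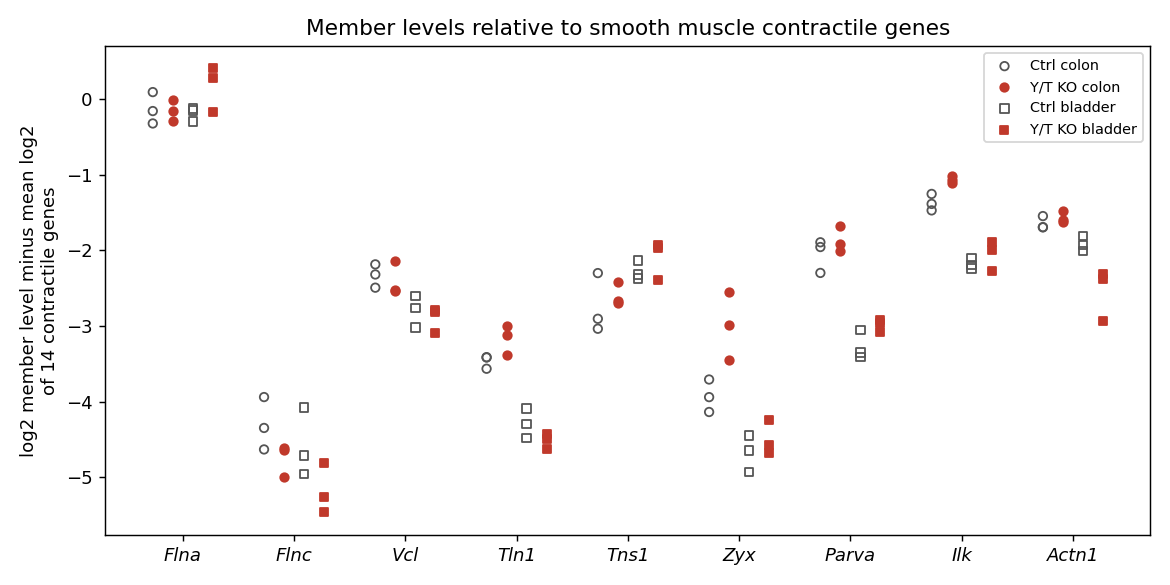
Log2 level of each member minus the mean log2 level of 14 contractile genes in the same library (vertical axis), by gene and group (hollow, Ctrl; red, Y/T KO; circles, colon; squares, bladder). *Zyx*, *Tln1* and *Ilk* have all Y/T KO colon points above the Ctrl colon points, and *Actn1* has all Y/T KO bladder points below the Ctrl bladder points.

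Set against the mean log2 level of those 14 contractile genes in the same library, the member median was 0.15 higher in Y/T KO than in Ctrl colon and 0.13 higher in bladder on the log2 scale. In colon *Zyx* (0.93), *Ilk* (0.31) and *Tln1* (0.30) were above every Ctrl library on this measure, and no member was below. For *Tln1* the margin was narrow, with the lowest Y/T KO colon at -3.39 and the highest Ctrl colon at -3.41. The 14 contractile genes themselves had median log2 fold changes of -0.48 in colon and -0.54 in bladder. A gene with no genotype difference would therefore also rise on this measure, and no share over all genes was computed on it. In bladder *Actn1* (-0.63) was below every Ctrl library and no member was above. Against *Myh11* alone, the smooth muscle myosin gene, the medians were 0.65 in colon and -0.15 in bladder, so the bladder sign depended on the reference. Between tissues in Ctrl mice the member median was 0.46 higher in colon on this measure, with *Parva* at 1.22 and *Tns1* at -0.47. The contractile genes had a median of -2.07 in Ctrl colon against Ctrl bladder, so the same limit held there.

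Across the 12 libraries the pattern of the 9 members together was most like that of *Vcl* among the members and of *H2afy2*, which encodes a macroH2A histone, among all others. Likeness was the root mean square difference from the mean member profile, each gene centred on its mean log2 level, over 10532 genes with a mean of at least 10 TPM. *H2afy2* differed by 0.119, *Vcl* by 0.152, *Adgrl1*, an adhesion receptor, by 0.152, *Cavin1*, a caveolar coat protein, by 0.154, *Mrgprf*, a G protein-coupled receptor, by 0.155 and *Ehd2*, a caveolar neck ATPase, by 0.160. Within the members *Ilk* and *Parva* were nearest to each other, at 0.202, and *Tns1* was farthest from the mean profile, at 0.561. The points share their libraries and are dominated by the tissue difference, so these values are a description only.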

How the data were processed

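The authors prepared stranded mRNA libraries, and the labels name HISAT2, StringTie and the GRCm38 build, with versions not given in the sources used here. Each deposited table lists, per gene, TPM, FPKM and coverage (mean depth per base), all made by the authors. No counts were used, so limma 3.58.1 in R 4.3.3 was the test in place of a count model. TPM was summed by gene ID (54532 genes), divided by median-of-ratios size factors, and analysed as log2(TPM + 0.1), so fold changes of low genes are understated. Genes with at least 0.5 TPM in 3 libraries were kept, and all 9 members passed. Genotype was tested within each tissue on 6 libraries, tissue and the interaction on all 12, with trended, robust moderation and Benjamini-Hochberg adjustment over all genes tested. Ratios were tested by exact permutation in Python 3.11.15 with scipy 1.17.1. The scripts were tested on simulated data.

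The members and gene lists were chosen with earlier results of these data known. Named genes were the members, every listed gene called between genotypes, up to 4 genes of the adhesion and paralogue lists per tissue with the smallest p, the 5 genes most like the mean member profile, and *Yap1* and *Wwtr1*. Genes outside this rule, such as *Rsu1*, *Parvb*, *Myh4*, *Actn3* and *Myh11*, were named as partners, paralogues or markers after their values were seen. Mouse numbers pair colon and bladder of the same animal for mice 788, 783 and 780. Their residuals correlated at -0.00913, 0.0675 and 0.0437, and a fit with the mouse as a block was an alternative. Pseudocounts, filters, scaling, FPKM and leaving out each library were the others. Libraries with skeletal muscle transcripts were left out as an alternative chosen after the data were seen. Results of 1 further gene are not reported here.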

Additional observations from a re-analysis of the deposited data

How the results depend on the processing

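With 3 mice per group, and 1 Y/T KO bladder left once those of mice 783 and 780 were removed (assumed to vary like the Ctrl bladders), no member passed an adjusted p of 0.05 between genotypes under any alternative run, and no cause of a shift was tested. With the mouse as a replicate block the genotype count of members was 0 in both tissues, as without it, and *Vcl* in bladder had an adjusted p of 0.0635. The block had a consensus correlation of 0.0514 and changed no call of a member. Counts over all genes moved more. Lower and higher genes in colon numbered 14 and 10, but 39 and 30 with all 12 libraries in one fit or with the block, and 2 and 4 without a filter. In colon they ran from 1 to 43 and from 2 to 20 on leaving out a library. In bladder they numbered 40 and 15, from 8 to 36 and from 2 to 15 on leaving out a library, 23 higher with 12 libraries in one fit, 18 and 0 without the Y/T KO bladders of mice 783 and 780, and 2 and 0 also without the Ctrl bladder of mouse 784. The interaction had 5 and 7, or 10 and 12 without trend and robust moderation, and 8 and 8 or 9 and 10 with a pseudocount of 0.5 or 1 TPM. On leaving out a library they ran from 3 to 15 and from 4 to 16, the highest being those without the Y/T KO colon of mouse 759.

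Signs turned only for values that were not called. Among them were *Flna* in bladder, at -0.26 in the main fit, and the interaction of *Flnc*, at 0.26. Without the Y/T KO bladders of mice 783 and 780 *Flna* in bladder was 0.21, and 0.16 also without the Ctrl bladder of mouse 784, and the interaction of *Parva* was -0.27 and of *Vcl* -0.019. The interaction of *Parva* was -0.012 with TPM as deposited. On leaving out a library the interaction ran from -0.12 to 0.14 for *Parva*, from -0.079 to 0.26 for *Tns1* and from -0.047 to 0.46 for *Flnc*, and *Wwtr1* in bladder ran from -0.017 to 0.43. The log2 ratio of *Lims1* to *Ilk* in bladder differed by -0.10 to 0.065. Relative to *Myh11* alone, the member medians were 0.65 in colon and -0.15 in bladder, in place of 0.15 and 0.13.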
